A study of Mus musculus with 46 samples.

Results

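The cell cycle and DNA replication genes described here are 34 of the 52636 genes in a table of hippocampal transcript levels, named for what their products do with earlier results of these data known. They were kept in 2 classes. The G1/S class holds 16 genes that drive entry into S phase or copy DNA, and the mitotic class holds 18 genes that are used in G2 and M phase. RNA was sequenced from 1 hippocampus, the left, of each Balb/cByj mouse pup at P17 (postnatal day 17), 1 library per pup. Of the 46 pups, 15 were reared under control (CTL) conditions (9 female, 6 male), 16 under limited bedding (LB; 9 female, 7 male) and 15 under unpredictable postnatal stress (UPS; 7 female, 8 male). From birth CTL litters had ample corncob bedding and a nestlet, whereas LB litters had little bedding and no nestlet. What the UPS procedure added is not given in the sources used here.

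A cell enters S phase when D-type cyclins bound to Cdk4 or Cdk6 phosphorylate the retinoblastoma protein and release E2F factors, which turn on genes for the replicative helicase (the Mcm proteins), the sliding clamp Pcna and the enzymes that make deoxynucleotides. Later, Cdk1 with cyclins A and B drives mitosis, and genes for the spindle, the kinetochore and chromosome structure are read mainly in G2 and M phase. In the hippocampus of a young mouse, dividing cells are found mainly among progenitors of the dentate gyrus, oligodendrocyte progenitor cells (OPCs) and other glia, and neurons no longer divide.

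Levels are given in TPM, a transcript's length-scaled share of all transcripts in a library. TPM does not keep sequencing depth, so the counting error of a low value is unknown. The female UPS pup 2 stood apart from the other libraries. Its median correlation with them was 0.937, against 0.973 to 0.981 for the others, and values without it stand beside the main UPS results. The female UPS pup 1 has an LB entry in 1 label field, and its title, which says UPS, was followed. The 12 hippocampal neuron markers summed to between 951 and 1285 TPM in every library. Whole litters were assigned to CTL or LB, some pups of a rearing group were littermates, and the labels do not tie them together, so the p-values below treat pups as independent. Comparisons of LB and of UPS with CTL share the same CTL pups.

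The promoters were searched for motifs of cell cycle factors, and the shares below are a description. RefSeq promoters (GRCm38.p6, 250 bases before to 50 after the annotated start) were found for 27 of the 34 genes, 13 G1/S and 14 mitotic, and for 27025 genes in all. Searched on both strands were the CHR element (TTTGAA), the CCAAT box (CCAAT), to which NF-Y binds, and 3 forms of an E2F site (TTTGGCGC, TTTCGCGC and GGCGGGAA), which can overlap one another. A CHR lay in 10 of the 14 mitotic promoters (71.4%), in 1 of the 13 G1/S promoters (7.69%, Mcm2) and in 20.2% of all genes. An E2F form lay in 6 of the 13 G1/S promoters (46.2%; Mcm3, Mcm5, Mcm6, Mcm7, Rrm1 and Ezh2), in 1 of the 14 mitotic ones (7.14%, Cdk1) and in 3.39% of all genes. A CCAAT box lay in 12 of the 14 mitotic promoters (85.7%), 9 of the 13 G1/S promoters (69.2%) and 41.1% of all genes. Cdk4, Tyms, Tk1, Hells, Birc5 and Nusap1 held none of these letters in the window, which says nothing of the factors that act there.

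Shown first are 3 mitotic promoters, because Top2a and Hmgb2 were the most abundant mitotic genes and Cdc20 is a compact example of a CHR between CCAAT boxes. Top2a lies on the minus strand (chr11:99024140-99024439), Hmgb2 on the plus strand (chr8:57511593-57511892) and Cdc20 on the minus strand (chr4:118437294-118437593). Capitals mark CHR and CCAAT matches on either strand, so that a match on the opposite strand reads as its reverse complement.
Top2a: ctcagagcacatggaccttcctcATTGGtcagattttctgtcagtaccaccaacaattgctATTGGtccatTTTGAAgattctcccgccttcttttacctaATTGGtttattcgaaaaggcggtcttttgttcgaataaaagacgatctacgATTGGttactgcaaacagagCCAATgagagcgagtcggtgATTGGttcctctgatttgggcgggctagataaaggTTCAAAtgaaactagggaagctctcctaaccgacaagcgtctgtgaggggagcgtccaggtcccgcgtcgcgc
Hmgb2: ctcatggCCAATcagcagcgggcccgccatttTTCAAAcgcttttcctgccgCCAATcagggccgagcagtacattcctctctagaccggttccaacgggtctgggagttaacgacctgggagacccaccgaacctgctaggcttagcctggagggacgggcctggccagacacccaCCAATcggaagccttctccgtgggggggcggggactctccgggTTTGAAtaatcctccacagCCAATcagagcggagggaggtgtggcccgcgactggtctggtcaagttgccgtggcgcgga
Cdc20: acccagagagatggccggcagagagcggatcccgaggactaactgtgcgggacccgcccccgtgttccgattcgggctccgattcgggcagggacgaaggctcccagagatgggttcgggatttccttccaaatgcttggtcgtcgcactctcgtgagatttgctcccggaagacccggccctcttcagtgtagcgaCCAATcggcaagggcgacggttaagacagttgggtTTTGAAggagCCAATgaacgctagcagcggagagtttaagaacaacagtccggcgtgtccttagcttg
The Top2a promoter held 2 CHR matches and 6 CCAAT boxes, and its nearest CHR lay 23 bases before the start. The Hmgb2 promoter held 2 CHR matches and 4 CCAAT boxes, with the nearest CHR 30 bases before the start. In the Cdc20 promoter the single CHR lay 18 bases before the start, between 2 CCAAT boxes.

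Shown next are 3 G1/S promoters, because Rrm2 and Pcna passed the test in a rearing comparison and Mcm6 is an example of E2F forms. Mcm6 lies on the minus strand (chr1:128359656-128359955), Pcna on the minus strand (chr2:132253131-132253430) and Rrm2 on the plus strand (chr12:24708004-24708303). Capitals mark E2F forms and CCAAT boxes on either strand.
Mcm6: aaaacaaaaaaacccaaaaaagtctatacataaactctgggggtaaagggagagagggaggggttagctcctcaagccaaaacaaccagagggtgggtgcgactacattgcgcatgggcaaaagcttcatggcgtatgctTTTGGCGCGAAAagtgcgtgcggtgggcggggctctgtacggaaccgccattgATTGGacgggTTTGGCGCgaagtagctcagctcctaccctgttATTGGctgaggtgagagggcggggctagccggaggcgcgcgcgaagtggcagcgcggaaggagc
Pcna: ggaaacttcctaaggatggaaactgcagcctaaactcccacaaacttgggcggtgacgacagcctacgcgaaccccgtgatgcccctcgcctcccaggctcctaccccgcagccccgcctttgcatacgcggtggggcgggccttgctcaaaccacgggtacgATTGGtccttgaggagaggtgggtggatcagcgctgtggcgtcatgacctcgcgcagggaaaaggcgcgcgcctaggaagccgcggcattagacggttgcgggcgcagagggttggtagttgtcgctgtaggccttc
Rrm2: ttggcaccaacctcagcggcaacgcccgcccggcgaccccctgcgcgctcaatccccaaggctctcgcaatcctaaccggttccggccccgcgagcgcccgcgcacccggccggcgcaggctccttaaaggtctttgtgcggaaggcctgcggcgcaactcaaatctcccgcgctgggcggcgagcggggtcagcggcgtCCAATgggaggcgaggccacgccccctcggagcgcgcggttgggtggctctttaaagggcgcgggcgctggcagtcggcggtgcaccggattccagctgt
The Mcm6 promoter held 3 E2F matches, of which 2 overlap, and 2 CCAAT boxes. The Pcna and Rrm2 promoters held 1 CCAAT box each and no CHR or listed E2F form.

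**Figure D1:**
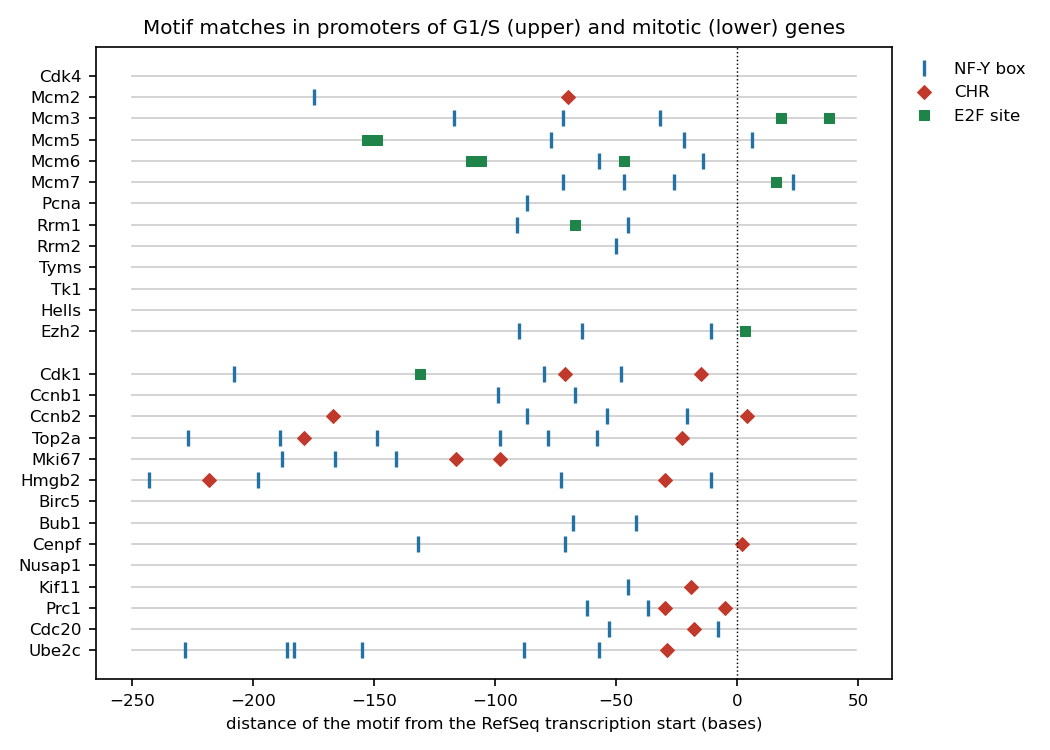
Positions of motif matches in the promoters of 13 G1/S and 14 mitotic genes, in bases from the RefSeq start, with symbols for the CHR, the CCAAT (NF-Y) box and E2F forms. CHR matches lie in 10 of the 14 mitotic promoters and in 1 of the 13 G1/S promoters.

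In CTL pups the G1/S genes spanned a wide range of levels, whereas the mitotic genes were low. The cyclin Ccnd2 was the most abundant, at 90.2 ± 7.58 TPM (SD, n = 15), and its partner kinase Cdk4 was at 75.4 ± 7.72. All genes were measured in the same pups, and their levels were not tested against one another. The clamp Pcna at 49.98 ± 4.53 and the cyclin Ccnd1 at 33.7 ± 1.92 were lower and apart from their neighbours. The helicase subunit Mcm7 (12.9 ± 1.26), the histone methyltransferase Ezh2 (12.5 ± 1.77) and the large subunit of ribonucleotide reductase, Rrm1 (12.3 ± 0.973), had means close to one another. Mcm4 was at 7.91 ± 0.648 TPM. The other helicase subunits Mcm5 (4.58 ± 0.688), Mcm6 (4.50 ± 0.739), Mcm2 (4.44 ± 0.649) and Mcm3 (3.50 ± 0.439) lay close to the small subunit of ribonucleotide reductase, Rrm2 (4.05 ± 0.644). The chromatin remodeller Hells (2.57 ± 0.719), thymidylate synthase Tyms (2.26 ± 0.534) and thymidine kinase Tk1 (1.11 ± 0.355) were low.

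Of the mitotic genes in CTL pups, the chromatin protein Hmgb2 (5.99 ± 0.891 TPM) and topoisomerase II alpha, Top2a (5.11 ± 0.985), had the highest means, and cyclin A2, Ccna2, was at 3.14 ± 0.801. The other 15 had CTL means from 0.678 TPM (the checkpoint kinase Bub1) to 2.59 TPM (the spindle midzone protein Prc1). A mean of 3 TPM or more in some rearing group, the filter used for testing, was reached by 20 of the 34 genes, 13 G1/S and 7 mitotic. The 14 genes under it, called low in what follows, were Tyms, Tk1, Hells, Cdk1, Ccnb1, Ccnb2, Mki67, Birc5, Aurkb, Bub1, Cenpf, Nusap1, Kif11 and Cdc20. Tpx2, Prc1, Ube2c and Pbk passed only through LB or UPS, so they had to differ between groups, and their calls are no support for a count. With a filter of 1 TPM all 34 genes were tested among 15754, and tests of the 14 low genes come from that fit, which Bub1 passed only through LB and UPS.

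**Figure D2:**
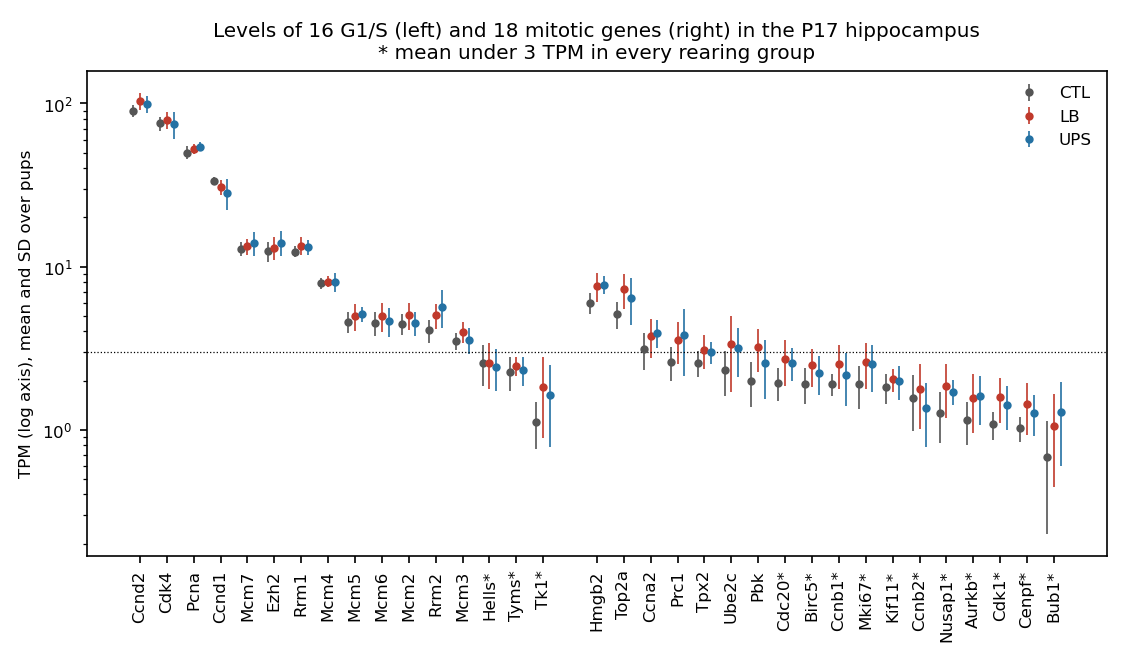
Mean TPM with SD (log axis) of the 16 G1/S and 18 mitotic genes in CTL (n = 15), LB (n = 16) and UPS (n = 15) pups, ordered by the CTL mean, with a dotted line at 3 TPM. Asterisks mark the 14 genes under it in every rearing group, 11 of them mitotic.

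The comparison of LB with CTL asks how rearing with little bedding changed these genes. The mitotic genes Top2a, Pbk and Hmgb2 rose in LB pups by 1.42-, 1.61- and 1.27-fold in mean TPM, and the G1/S genes Ccnd2 and Rrm2 by 1.14- and 1.24-fold. By limma on log2(TPM + 1), with Benjamini-Hochberg adjustment over 13244 genes, these were the 5 of 20 tested genes past an adjusted p of 0.05, none of them lower, where 7.54% of all genes passed (3.71% higher). Pbk was among the 20 only through its level in LB. Of the 16 genes that reached the filter in CTL, 4 passed (25%), against 7.5% of all genes that did so. Over the 33 genes with a CTL mean of 1 TPM or more, the difference was positive for 17 of 17 mitotic and 14 of 16 G1/S genes, with medians of 0.27 and 0.10, against 0.0016 over all such genes. Of all 15489 such genes 7847 were positive. In bulk RNA, more dividing cells, more RNA per dividing cell and changes in other cells or transcripts cannot be told apart. TPM is a share, so it also shifts with the levels of other transcripts.

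Top2a, which untangles DNA ahead of chromosome segregation, lay between 3.97 and 7.52 TPM in CTL pups (median 5.13) and between 4.39 and 10.4 TPM in LB pups (median 7.18). By sex, Top2a averaged 5.18 TPM in CTL females, 4.99 in CTL males, 7.57 in LB females and 6.89 in LB males. The groups overlapped, yet 7 of the 16 LB pups were above every CTL pup and 13 were above the CTL mean. Top2a had a log2 difference of 0.42 ± 0.10 (SE; adjusted p = 0.00999, limma), 0.39 in males and 0.45 in females. Pbk, a protein kinase of mitotic cells, lay between 1.10 and 2.88 TPM in CTL pups (median 1.94) and between 1.80 and 5.17 TPM in LB pups (median 3.32). Females averaged 1.91 TPM of Pbk in CTL and 3.34 in LB, and males 2.09 and 3.00. Most LB pups, 10 of 16, were above every CTL pup. The log2 difference of Pbk was 0.47 ± 0.12 (adjusted p = 0.0124), 0.39 in males and 0.56 in females, and with the 1 TPM filter adjusted p was 0.0133.

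Hmgb2, a DNA-bending protein of proliferating cells, lay between 5.07 and 8.29 TPM in CTL pups (median 5.71) and between 4.76 and 10.7 TPM in LB pups (median 7.84). In CTL, Hmgb2 averaged 5.96 TPM in females and 6.03 in males, and in LB 8.00 and 7.07. The lowest Hmgb2 value of all belonged to an LB pup, but 14 of 16 LB pups were above the CTL mean. Its log2 difference was 0.27 ± 0.08 (adjusted p = 0.0352), 0.19 in males and 0.36 in females, and the call was lost without any 1 of 12 libraries. Of the other mitotic genes tested at 3 TPM, Prc1 (log2 difference 0.32 ± 0.11, adjusted p = 0.0639), the spindle factor Tpx2 (0.20 ± 0.08, 0.129), the ubiquitin-conjugating enzyme of mitotic exit Ube2c (0.32 ± 0.18, 0.282) and Ccna2 (0.17 ± 0.11, 0.362) did not pass.

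Of the 11 low mitotic genes, the mitotic kinase Cdk1 passed with the 1 TPM filter. Cdk1 lay between 0.669 and 1.41 TPM in CTL pups (median 1.13) and between 0.948 and 2.69 TPM in LB pups (median 1.46), with 9 of 16 LB pups above every CTL pup. By sex, Cdk1 averaged 1.03 TPM in CTL females, 1.14 in CTL males, 1.6004 in LB females and 1.59 in LB males. Its log2 difference was 0.30 ± 0.08 (adjusted p = 0.0284), 0.26 in males and 0.33 in females, and without a filter adjusted p was 0.0517. The proliferation antigen gene Mki67 lay between 1.23 and 3.34 TPM in CTL pups (median 1.72) and between 1.23 and 4.04 TPM in LB pups (median 2.60). Females averaged 1.96 TPM of Mki67 in CTL and 2.72 in LB, and males 1.81 and 2.42. Only 3 LB pups were above every CTL pup, and the log2 difference of Mki67 was 0.29 ± 0.11 (adjusted p = 0.111).

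The remaining low mitotic genes had positive differences that did not pass. Of the spindle and kinetochore, Nusap1 was at 0.33 (adjusted p = 0.0681), the kinetochore protein Cenpf at 0.25 (0.0708) and the spindle motor Kif11 at 0.12 (0.270). Of the chromosomal passenger complex and the checkpoint, Birc5 was at 0.27 (0.0945), the kinase Aurkb at 0.24 (0.156) and Bub1 at 0.30 (0.177). The activator of mitotic exit Cdc20 was at 0.29 (0.0846), and the B-type cyclins Ccnb1 and Ccnb2 were at 0.24 (0.102) and 0.09 (0.749). In the 1 TPM fit, in which 6.37% of all genes passed, the 17 mitotic genes that reached the filter in CTL thus included 4 that passed (23.5%).

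In the G1/S class, Ccnd2 lay between 78.0 and 111 TPM in CTL pups (median 90.8) and between 84.4 and 129.5 TPM in LB pups (median 102). In CTL, Ccnd2 averaged 91.1 TPM in females and 89.0 in males, and in LB 103 and 104. Nearly all LB pups, 14 of 16, were above the CTL mean, although the ranges overlapped. The log2 difference of Ccnd2 was 0.19 ± 0.05 (adjusted p = 0.0239), 0.22 in males and 0.17 in females. Rrm2, which limits the supply of deoxynucleotides, lay between 3.18 and 5.46 TPM in CTL pups (median 4.16) and between 3.67 and 6.41 TPM in LB pups (median 4.98). By sex, Rrm2 averaged 4.05 TPM in CTL females, 4.06 in CTL males, 4.95 in LB females and 5.11 in LB males. The groups overlapped, with 6 LB pups above every CTL pup. For Rrm2 the log2 difference was 0.25 ± 0.08 (adjusted p = 0.0390), 0.26 in males and 0.24 in females, and the call was lost without any 1 of 15 libraries.

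Ccnd1 was the only one of the 20 genes with a negative difference. It lay between 31.4 and 37.1 TPM in CTL pups (median 33.6) and between 21.4 and 36.2 TPM in LB pups (median 31.3), and 14 of 16 LB pups were below the CTL mean. Females averaged 33.9 TPM of Ccnd1 in CTL and 30.4 in LB, and males 33.3 and 31.0. The log2 difference of -0.13 ± 0.05 did not pass (adjusted p = 0.0804). Ccnd1 and Ccnd2, cyclins that bind the same kinases, thus had differences of opposite sign, and their partner Cdk4 was at 0.07 ± 0.06 (adjusted p = 0.494).

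The helicase genes had small positive differences that did not pass, from 0.03 for Mcm7 (adjusted p = 0.763) to 0.14 for Mcm3 (0.167), with Mcm2 at 0.14 (0.270), Mcm4 at 0.04 (0.616), Mcm5 at 0.09 (0.4998) and Mcm6 at 0.12 (0.319). Pcna was at 0.09 ± 0.04 (0.175), Rrm1 at 0.11 ± 0.05 (0.192) and Ezh2 at 0.06 ± 0.08 (0.701). Of the low G1/S genes, Tk1 was at 0.37 ± 0.13 (0.0794), with 0.49 in males and 0.25 in females, while Tyms was at 0.11 (0.346) and Hells at -0.0024 (0.992). In CTL, Tk1 averaged 1.02 TPM in females and 1.25 in males, and in LB 1.49 and 2.28.

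**Figure D3:**
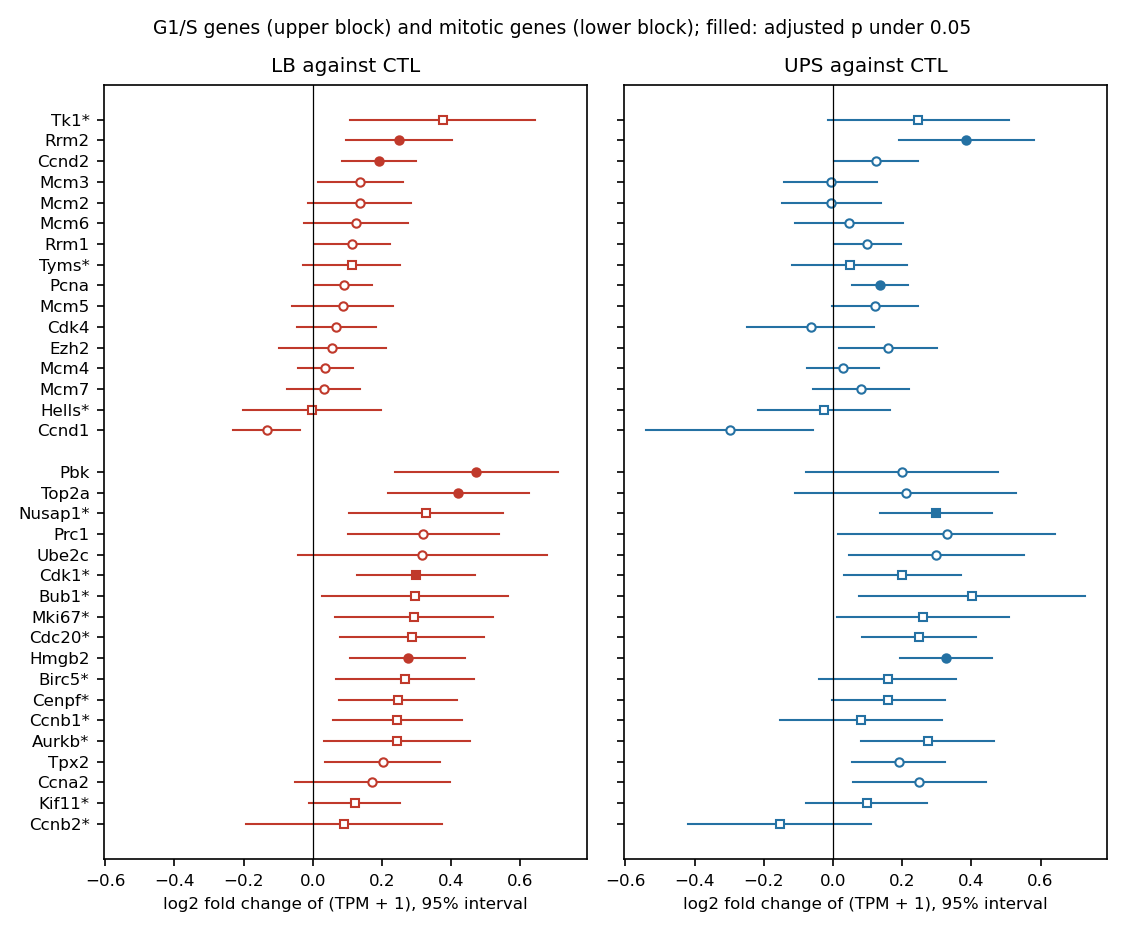
Log2 difference of TPM + 1 with its 95% interval for each gene in LB against CTL and in UPS against CTL, with G1/S and mitotic genes in separate blocks, low genes marked, and filled symbols for adjusted p under 0.05. Of the 17 mitotic genes with a CTL mean of 1 TPM or more, 17 lie above 0 in LB and 16 in UPS. Of all 15489 such genes 7847 do so in LB and 7395 in UPS. Bub1, which reached the filter only through LB and UPS, is drawn but not counted. Ccnd1 lies below 0 in both.

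With 1 library left out, between 2 and 6 genes passed in LB against CTL, and Top2a and Pbk did so in all 31 such fits. With all 46 libraries in one fit, Hmgb2 and Pbk passed and Top2a did not (adjusted p = 0.0743). The number was 3 without the CTL females 3 or 5, the CTL males 3, 6 or 7, the LB female 1 or the LB males 7 or 8, and 2 without the LB male 2.

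The comparison of UPS with CTL asks the same of the other form of early stress. Hmgb2, Rrm2 and Pcna rose in UPS pups by 1.29-, 1.40- and 1.09-fold in mean TPM. These were 3 of the 20 tested genes, none of them lower, where 10% of all genes tested passed (5.59% higher). All 3 were among the 16 genes that reached the filter in CTL (18.8% of them). Over the 33 genes with a CTL mean of 1 TPM or more, the difference was positive for 16 of 17 mitotic and 11 of 16 G1/S genes, with medians of 0.21 and 0.06, against -0.01 over all such genes. Of all 15489 such genes 7395 were positive. With the 1 TPM filter the spindle protein Nusap1 also passed, making 4 of the 33 (12.1%), where 8.19% of all genes passed. Without the female UPS pup 2, the number past the threshold at 3 TPM went from 3 to 7, against 16.4% of all genes in that fit. The 7 were Hmgb2, Rrm2, Pcna, Top2a, Prc1 and Ccnd2, all higher, and Ccnd1, lower. All but Prc1 were among the 16 genes that reached the filter in CTL.

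Hmgb2 lay between 5.99 and 8.98 TPM in UPS pups (median 7.82), and all 15 UPS pups were above the CTL mean. The means in UPS females and males were 8.00 and 7.53 TPM. Its log2 difference was 0.33 ± 0.06 (adjusted p = 0.00347), 0.28 in males and 0.37 in females, and 0.31 (0.00272) without the female UPS pup 2. Rrm2 lay between 3.79 and 9.19 TPM in UPS pups (median 5.68), and 9 of 15 were above every CTL pup, the highest being the female UPS pup 2. The means in UPS females and males were 6.13 and 5.30 TPM. The log2 difference of Rrm2 was 0.39 ± 0.10 (adjusted p = 0.0111), 0.30 in males and 0.47 in females, and 0.34 (0.0112) without that pup.

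Pcna, the clamp that holds DNA polymerase on its template, lay between 42.7 and 59.0 TPM in CTL pups (median 51.0) and between 49.8 and 60.9 TPM in UPS pups (median 52.8). By sex, Pcna averaged 51.9 TPM in CTL females, 47.1 in CTL males, 55.5 in UPS females and 53.2 in UPS males. The groups overlapped, and 6 CTL pups were below every UPS pup. The log2 difference of Pcna was 0.14 ± 0.04 (adjusted p = 0.0254), 0.18 in males and 0.10 in females, and 0.13 (0.0261) without the female UPS pup 2. Its adjusted p was 0.0553 without the CTL male 7.

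**Figure D4:**
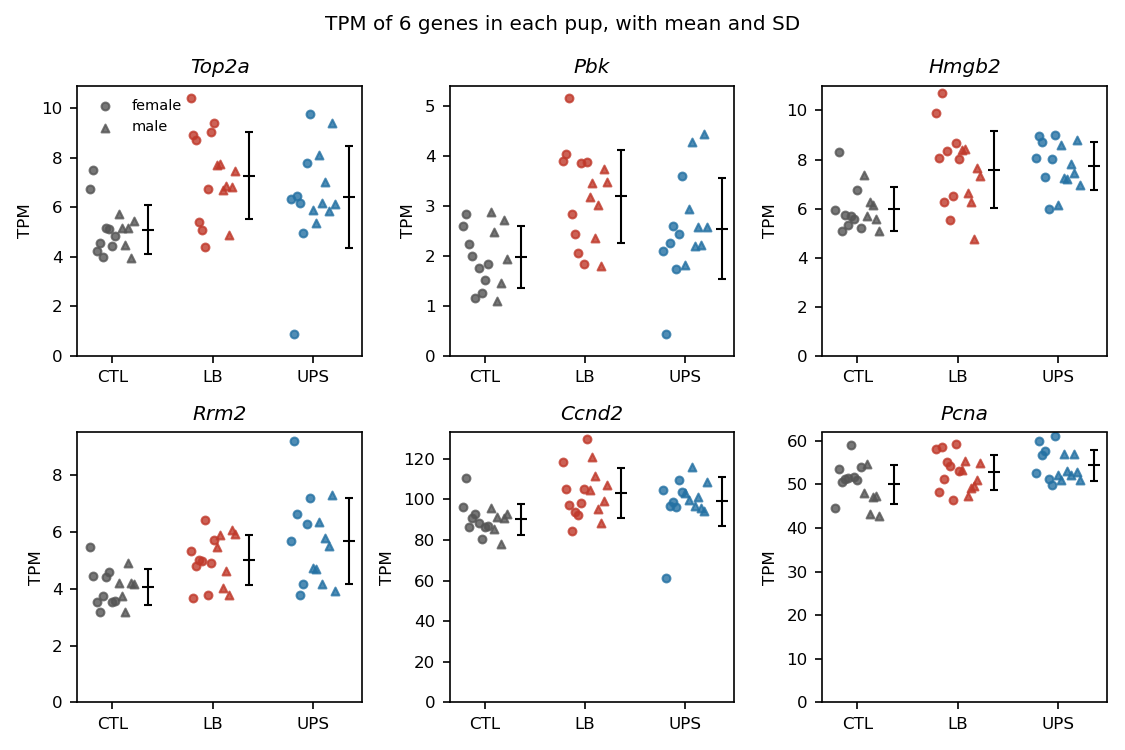
TPM of 6 genes in each CTL, LB and UPS pup, female and male pups with their own symbols, and the mean and SD of the rearing group beside the points. The female UPS pup 2 is the lowest point for Top2a (0.867 TPM), Pbk (0.430 TPM) and Ccnd2 (61.0 TPM) and the highest for Rrm2 (9.19 TPM).

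The female UPS pup 2 was low in Top2a, Mki67, Pbk, Bub1 and the D-type cyclins. Top2a was at 0.867 TPM there, against a UPS median of 6.16, Mki67 at 0.611 against 2.58, Ccnd1 at 8.07 against 29.2, and Bub1 was listed at 0. Hmgb2 and Pcna were not low in it, at 8.97 and 59.9 TPM. The lists of other cell cycle genes were not low in it. Its 48 other G1/S genes summed to 501 TPM against 427 to 488 in the other UPS pups, and its 50 other mitotic genes to 229.8 TPM against 189 to 219.6. Summed markers were low for OPCs (349 TPM against 601 to 795), neural progenitors and neuroblasts (971 TPM against 1177 to 1550.1), astrocytes (1383 TPM against 1564 to 1895) and endothelium (204 TPM against 252 to 314). They were high for microglia (713 TPM against 443 to 539) and blood (823 TPM against 272 to 560.4). The part of these marker levels in its values was not tested.

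Top2a lay between 0.867 and 9.79 TPM in UPS pups, with 13 of 15 above the CTL mean. For Top2a the log2 difference was 0.21 ± 0.16 (adjusted p = 0.406), 0.36 in males and 0.06 in females, and 0.36 (0.00927) without the female UPS pup 2. Ccnd1 lay between 8.07 and 34.7 TPM in UPS pups (median 29.2), with 13 of 15 below the CTL mean. In UPS females and males Ccnd1 averaged 26.7 and 29.7 TPM, Top2a 6.05 and 6.75, Ccnd2 95.7 and 102, Mki67 2.61 and 2.42 and Cdk1 1.47 and 1.38. For Ccnd1 the log2 difference was -0.30 ± 0.12 (adjusted p = 0.0976) and -0.17 (0.00591) without that pup, nearer to 0 but past the threshold. Ccnd2 lay between 61.0 and 116 TPM (median 99.8), with 14 of 15 UPS pups above the CTL mean, and its log2 difference was 0.12 ± 0.06 (adjusted p = 0.179) and 0.18 (0.00488) without that pup. Ccnd1 thus lay under CTL and Ccnd2 over it, as in the comparison of LB with the same CTL pups. Cdk4 was at -0.06 ± 0.09 (0.680) and at 0.02 (0.817) without that pup.

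Nusap1, which bundles spindle microtubules, lay between 0.819 and 2.16 TPM in CTL pups (median 1.14) and between 1.20 and 2.16 TPM in UPS pups (median 1.77), with 9 CTL pups below every UPS pup. Females averaged 1.43 TPM of Nusap1 in CTL and 1.68 in UPS, and males 1.01 and 1.73. Its log2 difference was 0.30 ± 0.08 (adjusted p = 0.0195 with the 1 TPM filter), 0.44 in males and 0.16 in females, and 0.32 (0.00859) without the female UPS pup 2. Cdc20 had the next smallest p and lay between 1.13 and 2.89 TPM in CTL pups and between 1.52 and 3.43 TPM in UPS pups, which overlapped. In CTL, Cdc20 averaged 1.78 TPM in females and 2.17 in males, and in UPS 2.25 and 2.84. Of the other low mitotic genes, none of which passed, Cdc20 was at 0.25 (0.0525), Aurkb at 0.27 (0.0638), Bub1 at 0.40 (0.109), Cdk1 at 0.20 (0.119) and Mki67 at 0.26 (0.175). Cenpf was at 0.16 (0.208), Birc5 at 0.16 (0.316), Kif11 at 0.10 (0.501), Ccnb1 at 0.08 (0.696) and Ccnb2, the only mitotic gene with a negative difference, at -0.15 (0.484). Without the female UPS pup 2, which was left out after its values were seen, 9 mitotic genes passed with the 1 TPM filter, where 13.9% of all genes did, and 8 of them were among the 17 that reached the filter in CTL. These were Top2a, Mki67, Hmgb2, Aurkb, Bub1, Cenpf, Nusap1, Prc1 and Cdc20, all higher in UPS, with Mki67 at 0.35 (0.0162) and Bub1, which reached the filter only through LB and UPS, at 0.49 (0.0280).

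The other genes did not pass in UPS. Of the mitotic class, Tpx2 was at 0.19 ± 0.07 (0.0636), Ccna2 at 0.25 ± 0.09 (0.0849), Ube2c at 0.30 ± 0.12 (0.115), Prc1 at 0.33 ± 0.15 (0.165) and Pbk at 0.20 ± 0.14 (0.359). With the female UPS pup 2 left out, Prc1 was at 0.43 (0.0252), past the threshold, and Pbk at 0.29 (0.0801), Tpx2 at 0.19 (0.0520), Ccna2 at 0.25 (0.0806) and Ube2c at 0.34 (0.0605). Of the helicase, Mcm5 was at 0.12 (0.201), Mcm7 at 0.08 (0.470), Mcm6 at 0.05 (0.731), Mcm4 at 0.03 (0.763), Mcm2 at -0.0042 (0.976) and Mcm3 at -0.01 (0.963). Rrm1 was at 0.10 ± 0.05 (0.175), Ezh2 at 0.16 ± 0.07 (0.136), Tk1 at 0.25 (0.227), Tyms at 0.05 (0.753) and Hells at -0.03 (0.891).

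Between LB and UPS 0 of the 34 genes passed (limma), where 0.0453% and 0.0381% of all genes passed in the fits at 3 and at 1 TPM. At an unadjusted p under 0.05 there were 0 of 20 genes at 3 TPM, against 12.7% of all genes, 0 of 34 at 1 TPM, against 11.7%, and 1 of 34 without a filter, against 7.45%. The smallest p-values of the G1/S class were those of Mcm3 (log2 difference of LB over UPS 0.14, 95% interval -0.0021 to 0.29, adjusted p = 0.3995), Mcm2 (0.14, -0.02 to 0.30, 0.466) and Cdk4 (0.13, -0.05 to 0.31, 0.539). In the mitotic class they were those of Pbk (0.27, -0.01 to 0.55, 0.403), the low gene Ccnb2 (0.24, -0.03 to 0.52, 0.470) and Top2a (0.21, -0.12 to 0.54, 0.598). Mean TPM in females and males, in that order, was 3.35 and 3.72 in CTL, 3.94 and 4.05 in LB, and 3.32 and 3.75 in UPS for Mcm3. For Mcm2 it was 4.38 and 4.54 in CTL, 4.96 and 5.09 in LB, and 4.07 and 4.88 in UPS. For Cdk4 it was 73.2 and 78.7 in CTL, 76.3 and 83.3 in LB, and 67.7 and 80.2 in UPS, and for Ccnb2 1.52 and 1.65 in CTL, 1.63 and 1.94 in LB, and 1.08 and 1.59 in UPS. All 6 intervals include 0. They do not show that the rearing conditions acted alike, and Top2a was at 0.06 (0.7997) without the female UPS pup 2.

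Summed over the 18 mitotic genes, CTL pups lay between 31.7 and 55.8 TPM (median 38.3), LB pups between 33.7 and 70.4 TPM (median 53.6) and UPS pups between 30.0 and 67.5 TPM (median 51.0). The groups overlapped, and the lowest sum belonged to the female UPS pup 2. The SD of the sum was 6.03 TPM in CTL, 11.2 in LB and 9.30 in UPS. The 16 G1/S genes summed to between 291 and 351 TPM (median 324) in CTL, between 297 and 402 TPM (median 343) in LB and between 251 and 357 TPM (median 340.3) in UPS, most of it from Ccnd2, Cdk4, Pcna and Ccnd1. The sums describe the genes and were not tested.

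**Figure D5:**
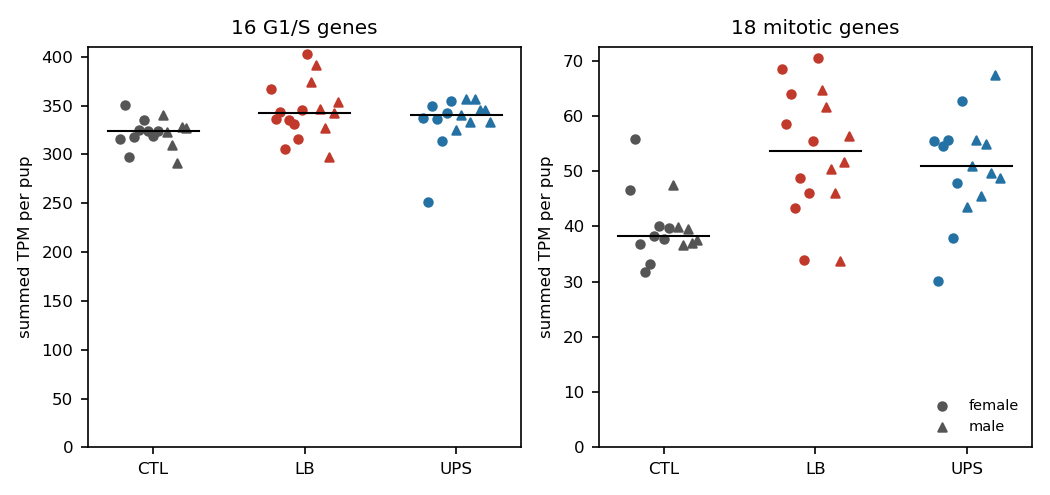
Summed TPM of the G1/S genes and of the mitotic genes in each pup, with female and male pups marked and the median of each rearing group. The mitotic medians are 38.3 TPM in CTL, 53.6 in LB and 51.0 in UPS.

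No difference between the sexes in a rearing effect passed after adjustment. In limma's interaction of rearing with sex, 0 of 20 tested genes passed for LB and 0 for UPS, and 0 of all 13244 genes did. At an unadjusted p under 0.05 the interaction held 0 of the 20 genes for LB (293 of all genes) and 1 for UPS (488 of all genes). That gene was Ezh2, with a UPS difference of 0.02 in males and 0.30 in females. Between male and female pups 3 of 20 genes differed, against 50.1% of all genes. Cdk4 was higher in males (80.8 against 72.8 TPM, log2 difference 0.17, adjusted p = 0.0314), and Pcna (-0.08, 0.0242) and Mcm4 (-0.09, 0.0341) were lower. Both female pups numbered 9, 1 CTL and 1 LB, lay on the male side of an axis over 6710 autosomal genes, as did 21 of 21 male libraries and 0 of 23 other female ones. Their column headers carry earlier names without the letter that marks females, and the sex totals in the study's methods equal the labelled ones with both pups taken as male. The labels were followed. Sex and a set of libraries cannot be told apart here.

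With the 3 TPM filter, other genes of the same pathways passed in shares at or under those of all genes, which were 7.54% in LB and 10% in UPS. Of 48 other G1/S and replication genes 30 were tested, and 1 passed in LB and 2 in UPS, all higher. These were the clamp loader subunit Rfc5 in LB (log2 difference 0.17, adjusted p = 0.0358), and in UPS the G1 kinase Cdk6 (0.28, 0.00859) and the retinoblastoma gene Rb1 (0.14, 0.0275). Next in LB was the DNA ligase Lig1 (0.25, 0.0595). The median over the list was 0.04 in LB and 0.04 in UPS. Without the female UPS pup 2, where 16.4% of all genes passed, Cdk6 (0.29, 0.00525), Rb1 (0.14, 0.0230) and the factor E2f3 (0.09, 0.0253) were higher and the clamp loader subunit Rfc3 (-0.17, 0.0462) lower. Of 50 other mitotic genes 20 were tested, and 0 passed in LB (limma, 4 at an unadjusted p under 0.05) and 2 in UPS, the Cdk subunit Cks1b (0.30, 0.0388) and the condensin subunit Smc4 (0.20, 0.0116), both higher. The median over these 20 was 0.05 in LB, with 14 positive, and 0.05 in UPS, with 13 positive. In the UPS fit without the female UPS pup 2, Cks1b (0.24, 0.0393) and Smc4 (0.21, 0.00773) were higher and the condensin subunit Ncapd2 (-0.16, 0.0362) lower. The smallest p-values in LB were those of Anln, a cytokinesis protein that myelinating cells also express (-0.16, 0.0753), and the kinesin Kif22 (0.30, 0.111). Between LB and UPS 0 of either list passed, with 3 of the G1/S and 1 of the mitotic genes at an unadjusted p under 0.05. The smallest were Rb1 (-0.10, 0.282), the E-type cyclin Ccne2 (-0.16, 0.351), the centromere protein Cenpm (0.22, 0.342) and Kif22 (0.16, 0.504).

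Among the CDK inhibitors, which hold cells in G1, Cdkn1a rose in LB and UPS and Cdkn1b in UPS. Cdkn1a (p21), a p53 target, was at 18.4 ± 2.93 TPM in CTL (SD, n = 15), 25.1 ± 6.79 in LB and 24.7 ± 7.14 in UPS, and it rose in both, with a log2 difference of 0.41 in LB (adjusted p = 0.0117) and 0.38 in UPS (0.0142). Cdkn1b (p27), which keeps cells out of the cycle, was at 41.8 ± 9.60 TPM in CTL, 44.0 ± 6.49 in LB and 53.8 ± 14.1 in UPS. It rose in UPS (0.39, 0.00825) and did not pass in LB (0.11, 0.428) or between LB and UPS (-0.28, 0.182). The UPS differences without the female UPS pup 2 were 0.30 (0.00489) for Cdkn1a and 0.39 (0.00721) for Cdkn1b. Of the 7 inhibitors 5 were tested, and 1 passed in LB and 2 in UPS, where 7.54% and 10% of all genes did. The difference was positive for 4 of the 5 in LB and for 3 in UPS. Without the female UPS pup 2, Cdkn1c was at -0.22 (0.0516) and Cdkn2c at -0.17 (0.102) in UPS, and neither passed. Between LB and UPS the next smallest p was that of Cdkn2c (0.17, 0.421).

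Marker lists of the other cell types in the tissue were read beside these genes and against the shares of all genes passing, 7.54% in LB and 10% in UPS. Of 18 neural progenitor and neuroblast markers 16 were tested. In LB 6 were higher, among them the neuroblast genes Dcx (0.39, 0.00568) and Sox11 (0.26, 0.0244), and 1 was lower, Lpar1 (-0.67, 0.00637), which myelinating cells also express. In UPS 4 were higher, Dcx (0.38, 0.00200), Neurod1 (0.29, 0.00655), Sox4 (0.23, 0.0161) and Sox11 (0.29, 0.0195), and 2 lower, Sox2 (-0.20, 0.0116) and Lpar1 (-0.42, 0.0441). Their sum was 996 to 1315 TPM in CTL, 1063 to 1639 in LB and 971 to 1550.1 in UPS. In UPS without the female pup 2, where 16.4% of all genes passed, 7 were higher and 2 lower, with Dcx at 0.40 (0.000848) and Sox11 at 0.32 (0.00635). The stem cell gene Nes did not pass in LB (0.04, 0.777) or UPS (0.11, 0.178). Of 12 OPC markers, all tested, 4 in LB and 1 in UPS were lower, with sums of 599.8 to 802 TPM in CTL, 593 to 797 in LB and 349 to 795 in UPS. In LB 6 of the 12 had a positive difference, with a median of -0.02, and in UPS 3, with a median of -0.10. Of 10 markers of myelinating oligodendrocytes, all tested, 10 were lower in LB and 9 in UPS, with sums of 1160.0 to 3694, 450.2 to 2409 and 845 to 2914 TPM. Of 9 microglia markers, all tested, 0 passed in either (limma; 1 in LB and 1 in UPS at an unadjusted p under 0.05), with sums of 421 to 506, 412 to 525 and 443 to 713 TPM. Of 5 blood markers, all tested, 1 was higher in LB and 3 in UPS, with sums of 236 to 416, 278 to 615 and 272 to 823 TPM. Without the female UPS pup 2, 3 OPC and 9 myelinating markers were lower in UPS and 1 microglia and 3 blood markers higher, and sums in the other UPS pups were at least 601 TPM for OPC markers and at most 539 for microglia and 560.4 for blood markers. The 3 OPC markers were Olig1 (-0.27, 0.00537), Olig2 (-0.18, 0.0270) and C1ql1 (-0.15, 0.0338), while Pdgfra was at 0.04 (0.593). Nor did Cspg4 (-0.02, 0.882), Gpr17 (0.01, 0.902), Vcan (0.13, 0.171), Lhfpl3 (0.04, 0.536) or Sox10 (-0.20, 0.0640) pass, and the OPC list median was -0.02. The paper names Olig2 and Sox10 among regulators of the abnormal myelination in LB. It reports no effect of LB on its own OPC-specific genes, a set not compared with this list. Of 7 meninges and fibroblast markers, all tested, 0 passed (limma), with 7 positive in LB (median 0.21) and 6 in UPS (0.09). Of 7 endothelial markers 1 was higher in LB and 0 passed in UPS. Of 7 astrocyte markers 1 was higher and 2 lower in LB, and 1 lower in UPS. Choroid plexus and ependyma markers, of which 0 of 5 tested passed, summed to 12.8 to 679 TPM in CTL, 11.9 to 2565 in LB and 22.1 to 1402 in UPS. Outside that last list no marker was at 0 in any library. The part of these lists in the results above was not tested.

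Across pups, the mitotic genes varied together within groups. Over deviations of log2(TPM + 1) from the means of rearing and sex, the median correlation was 0.42 over the 153 pairs of mitotic genes, of which 152 were positive, 0.24 over the 120 pairs of G1/S genes and 0.38 over the 15 pairs of helicase genes. These values share libraries, have no background of other gene pairs beside them and are a description. Against the 18 mitotic genes, Ccnd2 had a median correlation of 0.43, Cdk4 of 0.35, Ccnd1 of 0.22 and Rrm2 of 0.12. Without the female UPS pup 2 the medians were 0.43 over the mitotic pairs, of which 149 were positive, 0.27 over the G1/S pairs and 0.43 over the helicase pairs. Against the mitotic genes they were then 0.40 for Ccnd2, 0.23 for Cdk4, -0.09 for Ccnd1, which changed sign, and 0.33 for Rrm2.

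A family of 14 pairs was tested over 46 pups with 100000 two-sided permutations within groups and Benjamini-Hochberg adjustment, and 5 pairs passed by Pearson's r. The smallest p these draws can give is 1e-05. Top2a varied with Mki67 (r = 0.83, permutation p = 1e-05, adjusted p = 7e-05, and rho = 0.79, p = 1e-05, adjusted p = 7e-05), and r was 0.79 in CTL, 0.87 in LB and 0.87 in UPS. It varied with the neuroblast gene Sox11 (r = 0.63, permutation p = 1e-05, adjusted p = 7e-05, and rho = 0.69, p = 1e-05, adjusted p = 7e-05), with r of 0.64, 0.73 and 0.68 in the same groups. Its relation to Ccnd2 (r = 0.78, permutation p = 2e-05, adjusted p = 9.3e-05, and rho = 0.65, p = 3e-05, adjusted p = 0.000140) had r of 0.88 in females and 0.34 in males. These females include the female UPS pup 2, low in both genes, and the difference between the sexes was not tested. Top2a also varied with Mcm3 (r = 0.51, permutation p = 0.00118, adjusted p = 0.00330, and rho = 0.48, p = 0.000850, adjusted p = 0.00291), with r of 0.75 in LB and 0.55 in UPS and -0.01 in CTL, a difference that was not tested. Ccnd2 varied with Sox11 (r = 0.51, permutation p = 0.000660, adjusted p = 0.00231, and rho = 0.49, p = 0.00104, adjusted p = 0.00291), with r of 0.65 in females, that pup among them, and 0.24 in males, a difference that was not tested. With the 2 pups farthest from the median of the first gene left out, r was 0.77 for Top2a with Mki67, 0.64 with Sox11, 0.64 with Ccnd2 and 0.48 with Mcm3, and 0.43 for Ccnd2 with Sox11. The female UPS pup 2 was among the pups left out each time.

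The other 9 pairs did not pass by Pearson's r. Top2a with Mcm2 passed by rank alone (r = 0.40, permutation p = 0.0559, adjusted p = 0.131, and rho = 0.47, p = 0.00234, adjusted p = 0.00546), with r of 0.42 without the 2 farthest pups. Top2a with Ccnd1 (r = 0.62, permutation p = 0.105, adjusted p = 0.211, and rho = 0.24, p = 0.166, adjusted p = 0.290) rested on those pups, since r without them was 0.06. Top2a with Cdk1 (r = 0.13, permutation p = 0.496, adjusted p = 0.695, and rho = 0.12, p = 0.469, adjusted p = 0.547) and with Pcna (r = 0.0032, permutation p = 0.986, adjusted p = 0.986, and rho = 0.17, p = 0.303, adjusted p = 0.424) gave values nearer to 0. So did Top2a with the OPC gene Pdgfra (r = 0.16, permutation p = 0.173, adjusted p = 0.289, and rho = 0.24, p = 0.114, adjusted p = 0.228) and with the microglia gene Cx3cr1 (r = -0.06, permutation p = 0.674, adjusted p = 0.786, and rho = -0.03, p = 0.835, adjusted p = 0.835). For Pdgfra r was 0.53 in CTL, 0.50 in LB and -0.21 in UPS, and 0.31 without the 2 farthest pups. For Cx3cr1 r was 0.12 in CTL, -0.53 in LB and 0.14 in UPS, and -0.16 without those pups. These differences between groups were not tested. The last were Ccnd1 with Pdgfra (r = 0.02, permutation p = 0.856, adjusted p = 0.922, and rho = 0.15, p = 0.266, adjusted p = 0.414), Ccnd1 with Sox11 (r = 0.25, permutation p = 0.186, adjusted p = 0.289, and rho = 0.11, p = 0.464, adjusted p = 0.547) and Ccnd2 with Pdgfra (r = 0.08, permutation p = 0.563, adjusted p = 0.717, and rho = 0.10, p = 0.530, adjusted p = 0.570).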

How the data were processed

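RNA of 46 left hippocampi was sequenced, 1 library per pup. The authors trimmed reads, aligned them to mm10 with HISAT2 and GENCODE annotation, and deposited StringTie TPM values of 52636 genes, with no pooling and no tool version stated. Further deposited tables hold fold changes and p-values of the authors' own comparisons, none of which was used. Here log2(TPM + 1) was tested with limma 3.58.1 (R 4.3.3) under a variance trend, with a mean for each labelled sex and rearing combination of the groups compared. Rearing effects average the sexes. Adjustment was by Benjamini-Hochberg at 0.05 over 13244 genes reaching a group mean of 3 TPM, and 1 gene with a text cell was left out. The added 1 TPM understates changes of low genes, which were tested with a filter of 1 TPM. The fits were tested on simulated data. Correlations used Python 3.11.15 with numpy 2.4.6.

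Members and lists were chosen with earlier results of these data known. All 34 genes are named, with full statistics for those past the threshold, the 3 smallest p-values of each class and comparison, and Top2a, Mki67, Cdk1, Pcna, Mcm2, Cdk4, Ccnd1 and Ccnd2. Of other cell cycle lists, genes past the threshold and the 2 smallest p-values are named, and of marker lists only examples. Alternatives were other pseudocounts, filters, scalings and models, a sample number block, other treatments of the number 9 pups, the female UPS pup 1 left out, and every library left out once. Fits without a filter at a pseudocount of 0.1, fits and gene pairs without the female UPS pup 2 beyond those planned, and counts over genes that reach the filter in CTL were added after the data were seen.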

Additional observations from a re-analysis of the deposited data

Results flagged for a closer look

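In each of the 6 groups of rearing and sex, the highest and the lowest pup was compared with the rest for all 34 genes, and 18 of 204 such groups held a value set far from the others, where chance alone flags about 1 in 20. The female UPS pup 2 was the lowest of its 7 for Cdk4 (31.8 TPM), Ccnd1 (8.07 TPM) and Ccnd2 (61.0 TPM). The number 9 females were the highest of their 9 for Mcm2 (6.10 TPM in CTL, 7.41 TPM in LB), and the LB one also for Mcm6 (7.59 TPM) and Mcm7 (17.4 TPM). The LB male 5 was the lowest of 7 for Top2a (4.87 TPM) and Tpx2 (2.03 TPM). The CTL male 3 was the highest of 6 for Mcm4 (8.98 TPM) and Tpx2 (2.83 TPM). Low values stood apart in the LB female 3 for Ccnd1 (21.4 TPM), the LB female 6 for Mcm4 (6.82 TPM), the CTL male 7 for Rrm1 (9.86 TPM) and the CTL female 3 for Birc5 (0.727 TPM). High values stood apart in the CTL female 2 for Ezh2 (16.4 TPM), the UPS male 7 for Aurkb (3.10 TPM) and the LB female 1 for Cenpf (2.90 TPM).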

How the results depend on the processing

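Of the alternatives tried for 60 values of single genes, 2562 kept the direction and the side of the threshold, 47 lost and 25 gained the call and 86 changed sign, 0 of them for a value past the threshold. For LB against CTL the 5 genes (7.54% of all genes passing) became 2 without a filter (1.91%), 2 without a filter at a pseudocount of 0.1 (added after the data were seen; 1.91%), 2 with all 46 libraries in one fit (5.29%; Hmgb2 and Pbk) and 3 without the number 9 pups (7.04%), and between 2 and 6 with 1 library left out. With the number 9 pups as male 6 passed (9.96%), Prc1 being added. Library weights gave 7 (12.7%), with Prc1, higher, and Ccnd1, lower, added. Hmgb2 lost its call without any 1 of the CTL females 3, 5 or 7, the CTL males 3, 6 or 7, the LB females 1 or 3 or the LB males 1, 2, 7 or 8. Rrm2 lost its call without any 1 of the CTL females 3, 4, 5, 8 or 9, the CTL males 3, 4, 6 or 7, the LB females 1 or 9 or the LB males 1, 2, 7 or 8. For UPS against CTL the 3 genes (10% of all genes) became 10 with library weights (19.8% of all genes), and between 2 and 7 with 1 library left out, 7 without the UPS female 2 and 5 without the UPS female 5. Male against female gave 5 genes in place of 3 without the number 9 pups.

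Across rearing groups, the sample numbers did not pair pups of 1 sex. Whether same-numbered female and male pups of 1 rearing group go together was not tested. Of same-numbered pups of 1 sex, 2 of 14 pairs in LB against CTL, 1 of 13 in UPS against CTL and 2 of 14 in LB against UPS had deviations that correlated over 0.1, and 2 in each comparison correlated best with their own number. With the number as a replicate block, 0 genes passed in LB against CTL (0.566% of all genes), 2 in UPS against CTL (4.16%) and 0 between LB and UPS.

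Log2 differences changed sign for these genes. Mcm2 in UPS was at 0.00328 without mitochondrial genes in the scaling, 0.00834 with rearing alone, 0.0528 with the block, 0.0213 with library weights and 0.0215 without the number 9 pups. Mcm3 in UPS was at 0.00104, 0.00966, 0.0131 and 0.00694 under the same first 4 and at 0.00208 with the number 9 pups as male. Between LB and UPS, scaling without mitochondrial genes gave -0.0102 for Mcm4, -0.00423 for Rrm1, -0.00523 for Tpx2 and -0.00163 for Ube2c. The block gave -0.00129 for Mcm4, -0.00619 for Rrm1, -0.0470 for Tpx2 and -0.0813 for Ube2c. Library weights gave -0.0102 for Rrm1 and -0.0838 for Ube2c. Without the number 9 pups Tpx2 was at -0.00493 and Ube2c at -0.0400, and with them as male Ube2c was at -0.0134. A pseudocount of 0.1, with or without the filter, gave 0.0193 for Prc1 and -0.108 for Ube2c, a pseudocount of 0.5 gave 0.00125 and -0.00855, and rearing alone gave -0.0190 for Ube2c. With 1 library left out, UPS against CTL lay between -0.0985 and 0.0201 for Cdk4, -0.0246 and 0.0430 for Mcm2, -0.0406 and 0.0181 for Mcm3 and -0.000504 and 0.0563 for Mcm4. LB against UPS lay between -0.0204 and 0.0364 for Mcm4, -0.111 and 0.0649 for Prc1, -0.0155 and 0.0375 for Rrm1, -0.0143 and 0.0400 for Tpx2 and -0.0400 and 0.129 for Ube2c. The cause of these shifts was not tested.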
